A study of Mus musculus with 3 samples.

Results

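Class II-high C1q macrophages are phagocytes of the aortic intima that carry complement C1q transcripts together with transcripts of the class II antigen-presentation genes. They were chosen here by counts of the genes themselves. A droplet barcode was kept when it held at least 500 UMIs (unique molecular identifiers, 1 per captured transcript molecule) from 300 or more genes, with no more than 15% of them mitochondrial. It was gated as a phagocyte when at least 3 of 8 genes, C1qa, C1qb, C1qc, Csf1r, Cd68, Aif1, Fcer1g and Tyrobp, had a UMI, when these made up at least 0.5% of the UMIs left after mitochondrial, haemoglobin, Gm42418 and AY036118 genes were removed, and when Cd3e, Cd3d and Cd3g summed to at most 1 UMI. It was class II-high when H2-Aa, H2-Ab1, H2-Eb1 and Cd74 together made up at least 0.5% of the same UMIs. The rule found 380 members among 8284 kept barcodes, of 12082 deposited.

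The members came from 3 libraries of C57Bl/6J wildtype mice aged 12 to 13 weeks, of pooled sex, each library pooling the cells of 5 to 10 animals. The LPS library was made 18 hours after an intravenous injection of 30 ug ultrapure LPS, the lipopolysaccharide of bacterial outer membranes, and both control libraries came from mice labelled untreated, with no treatment given. In all groups the aorta had been perfused and pinned in buffer with the transcription blocker actinomycin D, digested briefly with Collagenase D and DNAse I, and cells were taken from the lesser curvature of the arch. There were 162 members in the LPS library, 55 in control replicate 1 and 163 in control replicate 2. Barcodes are not replicates of a condition, so conditions were compared over the 3 library sums, and p-values measure only the spread between these libraries, which may be technical.

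As background, the intima is the inner layer of the artery, and the lesser curvature of the arch is a site of disturbed blood flow where plaques tend to form. Macrophages live in the intima of healthy mice and sample the blood side of the vessel. C1q is the recognition molecule of the classical complement pathway. The class II proteins H2-A and H2-E present peptides to CD4 T cells, and Cd74, the invariant chain, guides them to the compartment where peptides are loaded. LPS is sensed by Toll-like receptor 4, which signals through NF-kB and through interferon regulatory factors.

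The libraries differed in ways that touch every comparison. Median UMIs left per member were 1239.5 in the LPS library, against 767 and 1617 in control replicates 1 and 2, and the member sums held 388757 UMIs against 94816 and 562124. Gm42418, a transcript that overlaps ribosomal RNA, took a median of 35.5% of the UMIs of LPS members, against 23.9% and 2.38% in the controls. The median mitochondrial share was 4.43% against 5.99% and 12.5%, and the mitochondrial limit removed 5 barcodes that met every other condition in the LPS library, against 6 and 123. The gene minimum removed 39 such barcodes in control replicate 1, against 0 in both other libraries. No member barcode was shared between libraries. Free RNA was estimated from barcodes with at least 80% haemoglobin and scaled by the median of the ratios for endothelial, fibroblast and smooth muscle markers. It came to 31.2% of member UMIs in the LPS library, against 18.9% and 30.3% in the controls. Its part in each result was not tested beyond the values given beside it.

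The label was checked against markers outside the gate. The pan macrophage list, with 10 of 10 markers detected in LPS members and 9 and 10 in control members, summed to 7786 CPM (UMIs per 1e6 UMIs of the sum), against 20397 and 15829 CPM. Its largest members in every library were Ctss, Apoe and Lyz2, with Ctss at 3334 CPM, against 2246 and 1998 CPM. Of its members, Adgre1, the F4/80 antigen, was at 134 CPM, against 169 and 306 CPM. Mertk was at 74.6 CPM, against 0 and 37.4 CPM. With barcodes thinned to 500 UMIs, Adgre1 was on 6.79% of LPS members and 0.581% of LPS barcodes outside the gate. For Mertk these shares were 1.85% and 4.32%, so it did not set the LPS members apart. C1q genes are part of the gate, so their detection is a description: after thinning every barcode to 500 UMIs, a C1q UMI was found in 92.0% of LPS members, against 91.7% and 92.0% of control members, with 7 shallower barcodes of control replicate 1 left out. Without thinning the shares were 98.1%, against 92.7% and 99.4%. In kept barcodes outside the gate, with median depths of 658, 1878 and 3255 UMIs left, the thinned shares were 15.8%, against 3.54% and 10.8%, and the unthinned ones 22.1%, against 4.89% and 40.8%.

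Marker lists of other antigen-presenting cells summed to less than the pan macrophage list, with some defining markers at 0. Single genes of these lists reached the level of Adgre1 in some libraries. Irf8 was at 149 CPM in LPS members, against 169 and 240 CPM in control members. Cadm1 was at 84.9 CPM, against 169 and 308 CPM, and Ccl17 at 226 CPM, against 0 and 0 CPM. The first conventional dendritic list summed to 424 CPM in LPS members, against 485 and 735 CPM. Its UMIs included 33 of Cadm1, against 16 and 173, and 58 of Irf8, against 16 and 135, while Xcr1 had 1 UMI over all members. A UMI of this list was on 35.2% of LPS members, against 30.9% and 50.9%. The second conventional dendritic list summed to 404 CPM, against 380 and 279 CPM, with 41 UMIs of Itgax, against 14 and 135, and 88 of Ccl17, against 0 and 0. Of that list Cd209a had 0 UMIs in LPS members, against 11 and 0, and Flt3 had 1 UMI over all members. The migratory dendritic list had 7 of 8 markers detected in LPS members, against 0 and 3, and summed to 193 CPM, against 0 and 30.2 CPM, with Ccr7 at 0 in all 3 libraries. The B cell list summed to 54 CPM, against 211 and 263 CPM, with Ighm at 1 UMI, against 17 and 107, and Cd79a at 0 in all 3. A count of 0 allows a share of up to 1.85% of LPS members with a UMI, against 5.45% and 1.84% of control members. The part of these markers in the LPS comparison was tested only by leaving out members with a UMI of selected ones, given beside the results it changed.

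The neutrophil list moved with LPS: 8 of its 10 markers were detected in LPS members and summed to 1554 CPM, against 0 and 2 markers at 0 and 7.12 CPM. Camp and Ly6g were at 0. The list sat mostly on 1 barcode, which held 549 of its 604 UMIs. Smooth muscle markers, all 8 detected, summed to 1603 CPM in LPS members, against 833 and 6451 CPM, the highest value being in control replicate 2. Fibroblast markers summed to 1119 CPM, against 380 and 1523 CPM, and endothelial markers to 509 CPM, against 148 and 567 CPM. Monocyte markers summed to 1443 CPM, against 1266 and 327 CPM.

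Among the gated phagocytes, class II-high barcodes were 162 of 247 in the LPS library, or 65.6% (95% Clopper-Pearson interval 59.3 to 71.5%), against 55 of 63 or 87.3% (76.5 to 94.4%) and 163 of 174 or 93.7% (89.0 to 96.8%) in control members of the gate. The class II-low barcodes of the LPS library carried the neutrophil list at 43229 CPM, against 5943 and 188 CPM in those of the controls, and the part of these cells in the share was not tested. A minority of barcodes carried these sums: the median was 1 neutrophil UMI per LPS class II-low barcode, with 6273 on 1 barcode, and 211 of the 215 UMIs of control replicate 1 were on 1 barcode. The LPS share lay below both controls, and the intervals, which cover counting error only, did not overlap. This share is a description: 1 library against 2 cannot give an exact permutation p below 0.333. With a class II minimum of 1% the shares were 52.2%, against 82.5% and 87.9%, and with a phagocyte minimum of 1% they were 85.6%, against 88.5% and 98.3%, where LPS and control replicate 1 lay close together. Near the class II limit, 33 LPS members were between 0.5 and 1% and 19 gated LPS barcodes between 0.25 and 0.5%, where control replicate 1 had 3 and 1 such barcodes and control replicate 2 had 10 and 2.

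**Figure D1:**
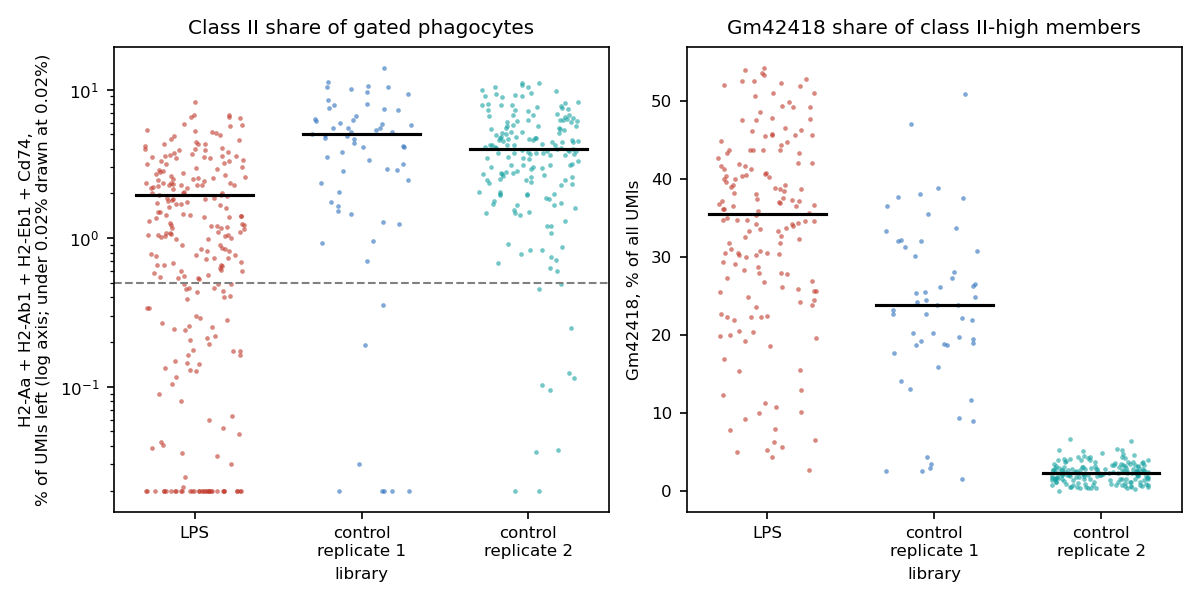
Left, the share of UMIs left that the 4 class II genes took in each gated phagocyte barcode, by library, on a log axis, with the limit of 0.5% dashed. Right, the share of all UMIs that Gm42418 took in each class II-high member. Horizontal bars are the medians of the class II-high members, which on the left are 1.96% with LPS, against 5.05% and 3.98% in the controls.

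The class II genes themselves were lower in LPS members than in members of both controls. Cd74 was at 17551 CPM in the LPS library, against 29573 and 30961 CPM in control replicates 1 and 2. H2-Aa was at 5093 CPM, against 8712 and 8379 CPM. H2-Ab1 was at 4491 CPM and H2-Eb1 at 4175 CPM with LPS, where the controls held between 8522 and 9162 CPM for each. The 4 genes kept near-constant proportions, Cd74 being 56.1% of class II UMIs with LPS, against 53.3% and 53.8%. Since the rule used these genes, the values are a description with no test. The C1q genes were closer: C1qa was at 2886 CPM, against 3649 and 4755 CPM, C1qb at 3660 CPM, against 3966 and 4686 CPM, and C1qc at 1994 CPM, against 2109 and 3010 CPM. Fcer1g, the shared gamma chain of Fc receptors, was the only 1 of the 8 phagocyte genes that was higher with LPS than in both controls, at 4615 CPM, against 3006 and 2523 CPM, while Tyrobp, the adaptor DAP12, was at 1317 CPM, against 3554 and 2300 CPM.

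The promoters of the class II genes hold a Y box, the CCAAT-type element bound by the factor NF-Y, to which the class II transactivator Ciita is recruited together with factors on neighbouring elements. The windows below, from RefSeq on GRCm38.p6, run from 250 bases before to 50 after the gene's start and are shown because these genes define the members. Both are protein-coding genes of chromosome 17, H2-Aa on the minus strand (chr17:34287774-34288073) and H2-Eb1 on the plus strand (chr17:34305617-34305916). Capitals mark CTGATTGG, searched on both strands.
H2-Aa: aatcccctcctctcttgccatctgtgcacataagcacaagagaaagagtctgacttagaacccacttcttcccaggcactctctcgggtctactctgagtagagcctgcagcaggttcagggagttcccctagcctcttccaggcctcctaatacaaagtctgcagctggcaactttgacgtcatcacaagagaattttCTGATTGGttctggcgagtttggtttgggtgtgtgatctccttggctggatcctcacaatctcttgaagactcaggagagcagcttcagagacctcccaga
H2-Eb1: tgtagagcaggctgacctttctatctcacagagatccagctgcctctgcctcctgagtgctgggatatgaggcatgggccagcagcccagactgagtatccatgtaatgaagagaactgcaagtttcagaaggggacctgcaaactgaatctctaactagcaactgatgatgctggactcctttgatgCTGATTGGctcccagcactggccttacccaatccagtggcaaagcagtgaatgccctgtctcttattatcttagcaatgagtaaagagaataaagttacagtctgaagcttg
In both windows the match lies just upstream of the start, beginning at base -51 for H2-Aa and at base -62 for H2-Eb1. CTGATTGG occurs in 4.10% of all 32851 promoters in the table.

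Ciita, the transactivator of class II genes, was not part of the rule and was lower with LPS. In CPM scaled by TMM factors, as for all tested genes, it was at 17.9 CPM in the LPS library, against 232 and 166 CPM in control replicates 1 and 2 (log2 fold change -3.39 ± 0.75 (SE), adjusted p = 0.000443). The 7 LPS UMIs lay on 5 barcodes, against 19 UMIs on 8 barcodes and 94 UMIs on 37 barcodes, and free RNA gave 0% of them in all 3 libraries. Of the 10 tested genes in a list of class II presentation outside the gate, Ciita fell, 0 rose and 9 did not pass. Among those 9, Ctss, the cathepsin that trims the invariant chain, was at 3322 CPM with LPS, against 2596 and 1979.8 CPM in the controls (adjusted p = 0.912), and H2-DMb1, a subunit of the peptide exchanger, at 454 CPM with LPS, against 999 and 903 CPM in the controls (adjusted p = 0.701). The list's median log2 fold change was -0.37, against -0.03 over all 6671 genes tested. After subtraction of the haemoglobin-based free RNA 1 of 10 list genes was lower. By DESeq2 0 of 17 were called, and 0 of 8 after subtraction of free RNA estimated from barcodes outside the gate.

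The response to LPS was tested over these genes with edgeR's quasi-likelihood test on the library sums, with Benjamini-Hochberg adjustment. Fold changes are LPS over control. In all, 180 genes were higher with LPS, 2.7% of those tested, and 75 were lower, 1.12%. These shares are the background for every list count below. Of the 255 called genes, 241 had the LPS library outside both controls. With only 1 LPS library, the spread was estimated between the controls, on 1 residual degree of freedom, and taken to hold for LPS. The prior degrees of freedom were infinite, so the test used a spread shared across genes and not each gene's own. A gene on which the controls disagree widely can therefore still be called. Of the higher calls, 15 had 0 UMIs in both controls and entered the test only through the LPS library. DESeq2 called 34 higher and 9 lower. After subtraction of the haemoglobin-based free RNA estimate 84 genes were called higher and 24 lower. Of these, 78 and 14 were among the 180 and 75 genes called without subtraction, so most lower calls were lost. A second free RNA estimate, from barcodes outside the gate, took 56.2% of control replicate 2 and left 0 calls by edgeR, with 132 genes at an unadjusted p under 0.05.

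**Figure D2:**
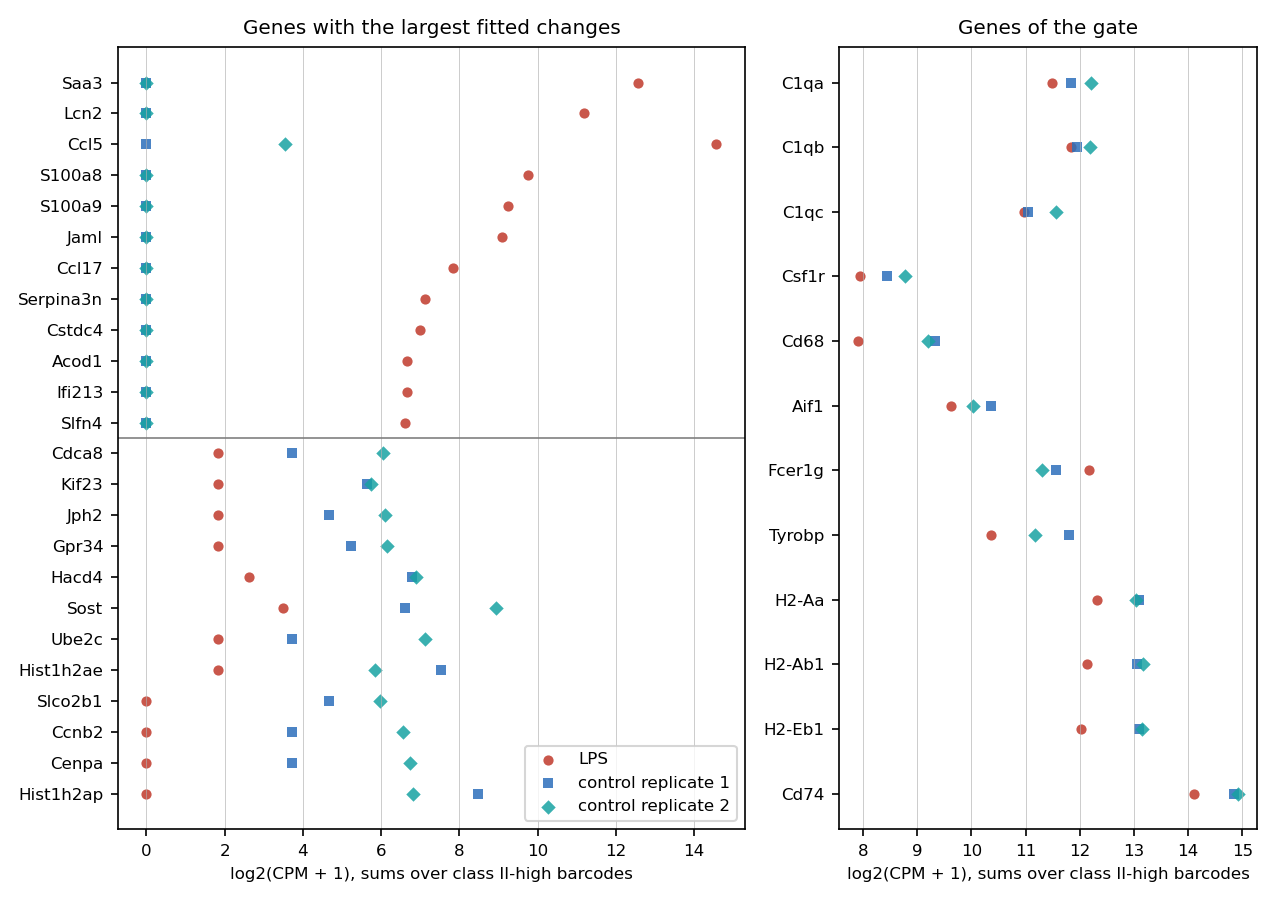
Levels per library, as log2(CPM + 1), of sums over class II-high barcodes. Left, the 12 genes with the largest fitted rise and the 12 with the largest fitted fall, scaled by TMM factors. Right, genes of the gate, per UMIs left. Circles are the LPS library, squares and diamonds control replicates 1 and 2. Of the 12 risen genes, 11 sit at 0 in both controls and could enter the test only through the LPS library.

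Chemokines held the gene with the highest level among those that rose. Ccl5 (RANTES, ENSMUSG00000035042, chromosome 11, 83525778 to 83530518, minus strand, GRCm38), which attracts T cells and monocytes, was at 24294 CPM in the LPS library, against 0 and 10.6 CPM in control replicates 1 and 2 (log2 fold change 11.40 ± 1.51 (SE), adjusted p = 2.51e-11). It made up 9479 UMIs in the LPS members, against 0 and 6. A Ccl5 UMI was on 159 of 162 LPS members, with a median of 24 UMIs per barcode, against 0 of 55 and 4 of 163 control members. After thinning, 157 of 162 LPS members kept one, against 0 of 48 and 1 of 163. Outside the gate, 34.5% of LPS barcodes had one, at a median depth of 658 UMIs left against 1239.5 in the members, and free RNA gave 0.73% of the members' UMIs. So the LPS library stood apart from both controls in nearly every member.

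Ccl17 and Ccl22, ligands of the receptor CCR4 on T cells, had 0 UMIs in both controls. Ccl17 was at 226 CPM with LPS, against 0 CPM in both controls (at least 48.8-fold higher, adjusted p = 1.01e-13), with 88 UMIs on 27 barcodes. Ccl22 was at 66.6 CPM with LPS, against 0 CPM in both controls (at least 14.4-fold higher, adjusted p = 0.000644). Free RNA gave 0.457% and 0% of their UMIs. Cxcl10, a ligand of CXCR3 induced by interferons, was at 325 CPM with LPS, against 0 and 1.76 CPM in the controls (211-fold higher (95% counting interval 37.3 to 8412), adjusted p = 1.06e-13), and free RNA gave 28.8%. Of 19 tested chemokines, 8 rose (Ccl5, Ccl17, Ccl22, Ccl24, Cxcl1, Cxcl9, Cxcl10 and Cxcl13), 0 fell and 11 did not pass, with a median log2 fold change of 1.99. After subtraction of free RNA 6 of 15 passed. Among those that did not pass, outside the rule for named genes, Ccl3 was at 97.4 CPM with LPS, against 0 and 159 CPM in the controls, and Ccl4 at 195 CPM with LPS, against 0 and 238 CPM in the controls, and neither had LPS outside both controls. Cxcl2 was at 438 CPM with LPS, against 0 and 222 CPM in the controls (adjusted p = 0.0871).

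Acute-phase genes had the highest median change of the 26 lists, a rank that includes genes tested only because of their LPS counts. Saa3 (serum amyloid A3, ENSMUSG00000040026, chromosome 7, 46711998 to 46715700, minus strand, GRCm38), a secreted apolipoprotein of inflammation, was at 6038 CPM with LPS, against 0 CPM in both controls (at least 1307-fold higher, adjusted p = 3.82e-17). Its 2356 UMIs lay on 125 of 162 members, 86 after thinning, while 68.6% of LPS barcodes outside the gate also had one. Free RNA gave 7.26% of its UMIs in the members. Lcn2, lipocalin 2, which binds bacterial siderophores, was at 2327 CPM with LPS, against 0 CPM in both controls (at least 504-fold higher, adjusted p = 2.42e-18), but free RNA gave 52.3% of that, and 96.3% of members and 96.4% of outside barcodes had a UMI, so this share of barcodes is at background. Serpina3n, a protease inhibitor, at 138 CPM with LPS, against 0 CPM in both controls (at least 30-fold higher, adjusted p = 1.2e-09), had 115% of its UMIs from free RNA, so that none was left after subtraction. Ptx3, a soluble pattern receptor, was at 74.3 CPM with LPS, against 0 CPM in both controls (at least 16.1-fold higher, adjusted p = 7.43e-05) with 68% from free RNA.

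Of 11 tested acute-phase genes, 7 rose, 0 fell and 4 did not pass, with a median log2 fold change of 6.84, or 4.68 with genes at 0 in a group set to their bound. After subtraction of free RNA only 5 of the 11 still passed the count filter, and all 5 were called. Genes at 0 in both controls pass that filter only through the LPS library, with or without subtraction. The list's rank, its median and both counts therefore cannot show how far the calls hold. Metal-handling genes overlapped this list in Cp, ceruloplasmin, at 538 CPM with LPS, against 0 and 26.4 CPM in the controls (log2 fold change 4.68 ± 0.68 (SE), adjusted p = 1.37e-09), with 81.4% from free RNA. Mt2, a metallothionein that binds zinc and copper, was at 1725 CPM with LPS, against 12.2 and 44.1 CPM in the controls (log2 fold change 5.59 ± 0.75 (SE), adjusted p = 5.85e-11), with 83.3%. The zinc and iron importer Slc39a14 was at 128 CPM with LPS, against 0 and 21.2 CPM in the controls (adjusted p = 0.00105) and free RNA gave 101%. Slc40a1, ferroportin, which exports iron, was called lower, at 2.56 CPM with LPS, against 0 and 75.8 CPM in the controls (25.8-fold lower (95% counting interval 4.4 to 1044), adjusted p = 0.0135), with LPS lying between the controls. In all 4 of 13 metal-handling genes rose and 1 fell, with a median log2 fold change of 1.09, and after subtraction of free RNA 3 of 12 rose and 0 fell.

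S100a8 and S100a9, the subunits of calprotectin and abundant in neutrophils, passed the test but rested on 1 barcode. S100a8 was at 861 CPM with LPS, against 0 CPM in both controls (at least 186-fold higher, adjusted p = 3.82e-18), and 1 barcode held 94.3% of the UMIs, while S100a9 was at 602 CPM with LPS, against 0 CPM in both controls (at least 130.4-fold higher, adjusted p = 3.82e-17) with 91.5% on 1 barcode. Leaving out the top 5% of barcodes by UMIs gave adjusted p = 0.0652 for S100a8 and 0.152 for S100a9. Leaving out every member with a UMI of either gene left 127 LPS members, with 157 genes higher and 71 lower. Cstdc4, of the stefin family, had all 49 of its LPS UMIs on 1 barcode, and Slfn4, of the Schlafen family, had 73.7% of 38 UMIs on 1 barcode (adjusted p = 6.99e-09 and adjusted p = 4.59e-07). Both families have near-identical copies, so reads could be split between them.

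Of 41 tested genes of the type I interferon response, 22 rose, 0 fell and 19 did not pass, and the median log2 fold change was 2.29, against -0.03 over all genes tested. Ifit1, which binds viral RNA lacking 2'-O methylation, was at 277 CPM with LPS, against 0 and 3.53 CPM in the controls (89.9-fold higher (95% counting interval 24.3 to 751), adjusted p = 3.04e-12), with 51.4% from free RNA. Oasl1, which restrains Irf7 translation, was at 154 CPM with LPS, against 0 and 1.76 CPM in the controls (99.8-fold higher (95% counting interval 17.2 to 4009), adjusted p = 3.27e-09), with 8.72%. Irf7, the regulator that amplifies interferon production, was at 1166 CPM with LPS, against 73.1 and 10.6 CPM in the controls (log2 fold change 5.48 ± 0.76 (SE), adjusted p = 2.96e-10), with 21.1%. Rsad2, viperin, an antiviral enzyme, was at 336 CPM with LPS, against 0 and 5.29 CPM in the controls (72.7-fold higher (95% counting interval 24.3 to 357), adjusted p = 4.25e-12), but 274% of its UMIs were predicted from free RNA and none was left after subtraction. After that subtraction 10 of 37 list genes passed. DESeq2 called 7 of 42, and without members carrying S100a8 or S100a9 17 of 40 passed.

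The guanylate-binding proteins and immunity-related GTPases, which attack the vacuoles of intracellular microbes, rose in 9 of 13 tested, with 0 lower and a median log2 fold change of 3.21. Gbp5 was at 359 CPM with LPS, against 0 and 12.3 CPM in the controls (log2 fold change 5.09 ± 0.71 (SE), adjusted p = 2.96e-10), Gbp2 at 848 CPM with LPS, against 24.4 and 70.5 CPM in the controls (log2 fold change 3.90 ± 0.65 (SE), adjusted p = 2.78e-07) and Gbp7 at 489.5 CPM with LPS, against 12.2 and 40.5 CPM in the controls (log2 fold change 3.86 ± 0.64 (SE), adjusted p = 3.02e-07). Iigp1, which coats such vacuoles, was at 443 CPM with LPS, against 0 and 17.6 CPM in the controls (log2 fold change 4.93 ± 0.70 (SE), adjusted p = 5.76e-10). Free RNA gave 35.1%, 59.9%, 46.4% and 73.7% of their LPS UMIs, and after subtraction 4 of 9 list genes passed. Among barcodes with at most 20% Gm42418 (23 LPS members, against 20 and 163) 4 of 10 passed, and 17 of 41 of the interferon list. Gbp genes have near-identical copies, so single members are uncertain. Ifi213, a PYHIN-family gene with close copies, was at 100 CPM with LPS, against 0 CPM in both controls (at least 21.6-fold higher, adjusted p = 2.78e-07).

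Many promoters of these genes hold an interferon-stimulated response element, which is bound by interferon regulatory factors. The element was searched as GAAA, any 2 bases and GAAA on both strands of the same RefSeq windows (GRCm38.p6). It occurred in 3.44% of all 32851 promoters. By gene, it was in 16 of the 31 interferon-response genes with a promoter in the table, in all 9 such guanylate-binding and immunity-related GTPase genes, and in 28 of 139 genes that were higher with LPS, against 6 of 57 that were lower and 246 of 5352 tested. The windows of 4 genes that rose are shown, Ifit1 (chr19:34640639-34640938, plus strand), Cxcl10 (chr5:92348840-92349139, minus strand), Saa3 (chr7:46715627-46715926, minus strand) and Jaml (chr9:45078933-45079232, plus strand), with matches in capitals, which read TTTC, any 2 bases and TTTC where they lie on the other strand.
Ifit1: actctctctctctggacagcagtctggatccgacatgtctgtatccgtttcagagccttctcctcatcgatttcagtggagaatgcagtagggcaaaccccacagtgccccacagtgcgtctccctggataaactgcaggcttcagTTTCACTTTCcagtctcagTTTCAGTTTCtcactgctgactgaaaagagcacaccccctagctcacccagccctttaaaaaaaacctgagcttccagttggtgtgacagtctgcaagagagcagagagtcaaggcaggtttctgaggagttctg
Cxcl10: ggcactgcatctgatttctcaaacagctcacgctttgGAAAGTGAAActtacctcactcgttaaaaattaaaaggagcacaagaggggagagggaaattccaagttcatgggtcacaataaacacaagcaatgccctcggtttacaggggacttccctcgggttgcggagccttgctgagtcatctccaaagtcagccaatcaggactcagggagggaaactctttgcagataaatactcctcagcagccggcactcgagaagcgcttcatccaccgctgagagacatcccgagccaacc
Saa3: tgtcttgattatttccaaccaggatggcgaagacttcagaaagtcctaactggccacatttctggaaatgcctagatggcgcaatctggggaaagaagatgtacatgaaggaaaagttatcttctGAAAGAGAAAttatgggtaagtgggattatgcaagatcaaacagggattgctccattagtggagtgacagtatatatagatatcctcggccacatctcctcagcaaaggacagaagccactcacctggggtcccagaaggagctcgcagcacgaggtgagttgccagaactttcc
Jaml: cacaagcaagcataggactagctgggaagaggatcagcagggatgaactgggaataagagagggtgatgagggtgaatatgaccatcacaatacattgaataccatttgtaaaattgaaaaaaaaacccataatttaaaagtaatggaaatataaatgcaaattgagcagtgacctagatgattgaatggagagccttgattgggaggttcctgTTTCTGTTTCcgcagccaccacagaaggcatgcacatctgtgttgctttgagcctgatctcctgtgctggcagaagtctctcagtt
Ifit1 holds 2 matches and the other windows 1 each. A match in these letters is a description of the window and no measure of binding in these cells.

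Jaml, a junctional adhesion molecule of leukocytes that binds the coxsackie and adenovirus receptor, was among the genes least shared with free RNA. It was at 546 CPM with LPS, against 0 CPM in both controls (at least 118-fold higher, adjusted p = 7.13e-17), with 213 UMIs on 61 LPS members. Only 3.61% of LPS barcodes outside the gate had a UMI, and free RNA gave 1.51%.

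**Figure D3:**
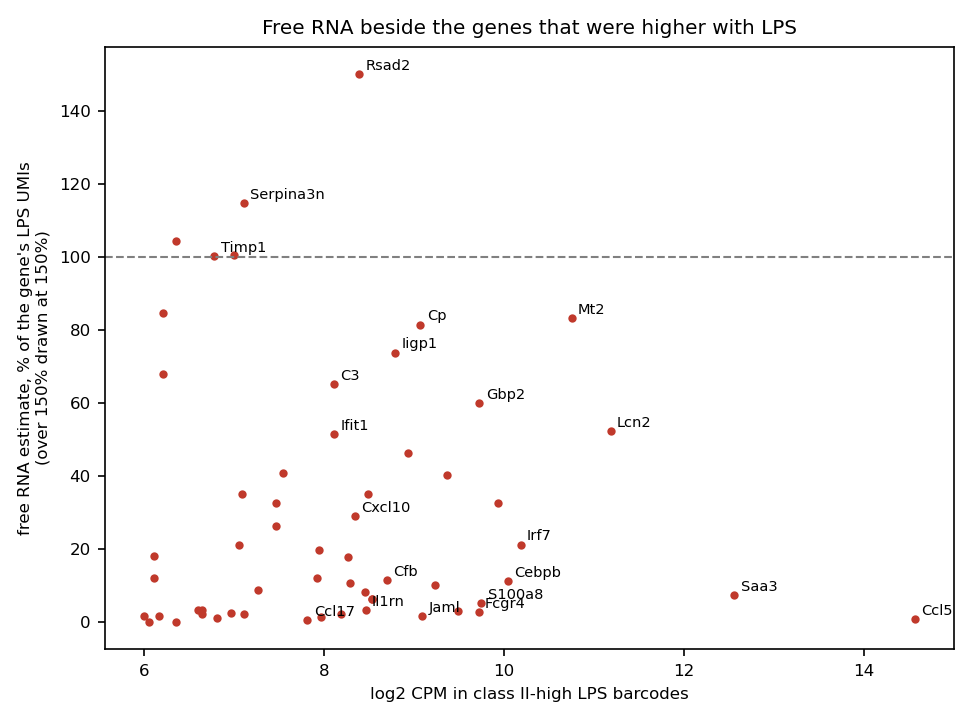
Free RNA beside each named gene that was higher with LPS. The x axis is the log2 CPM in class II-high LPS barcodes, and the y axis the share of the gene's LPS UMIs that the haemoglobin-rich barcodes predict from free RNA. Points at the dashed line (100%) or above, such as Rsad2, Serpina3n and Timp1, have all their UMIs predicted, whereas Ccl5, Ccl17, Jaml and Saa3 lie under 10%.

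Over all 180 genes that were higher with LPS, free RNA gave a median of 21.3% of the LPS UMIs, against 25.9% over all genes tested. It gave under 10% for 58 of them and over 50% for 51.

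Of 22 tested genes of class I presentation and the immunoproteasome, 4 rose and 0 fell, with a median log2 fold change of 1.25. Among all genes tested 2.7% rose and 1.12% fell. Tap1, a subunit of the peptide transporter, was at 243 CPM with LPS, against 0 and 68.8 CPM in the controls (log2 fold change 2.28 ± 0.57 (SE), adjusted p = 0.00342), and Tapbp, tapasin, at 659 CPM with LPS, against 122 and 157 CPM in the controls (log2 fold change 2.20 ± 0.61 (SE), adjusted p = 0.0123). The class I genes H2-T22, at 308 CPM with LPS, against 85.3 and 67 CPM in the controls (adjusted p = 0.0205), and H2-Q7, at 246 CPM with LPS, against 73.1 and 58.2 CPM in the controls (adjusted p = 0.0283), have near-identical copies. After subtraction of free RNA 0 of 22 passed. Among 11 tested costimulation and checkpoint ligands 2 rose. Cd40, the receptor for T-cell help, was at 251 CPM with LPS, against 24.4 and 19.4 CPM in the controls (log2 fold change 3.60 ± 0.64 (SE), adjusted p = 2.02e-06), with 1.23% from free RNA. Cd274, PD-L1, was at 136 CPM with LPS, against 0 and 1.76 CPM in the controls (88.2-fold higher (95% counting interval 15.2 to 3548), adjusted p = 3.37e-08), with 34.9%. Both passed after subtraction of the haemoglobin-based estimate. Of this list 0 of 14 were called by DESeq2 and 0 of 11 after subtraction of the estimate from barcodes outside the gate. With the top 5% of barcodes by UMIs left out, 1 of 11 was called. Cd48, a ligand of CD244, was at 128 CPM with LPS, against 219 and 145 CPM in the controls, and Vsir, the checkpoint VISTA, at 92.3 CPM with LPS, against 207 and 199 CPM in the controls, and neither passed (adjusted p = 0.902 and adjusted p = 0.545).

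Complement genes outside the gate rose in 4 of 11 tested, with 0 lower, and after subtraction of free RNA 2 of 9 were higher and 1 lower. DESeq2 called 1 of 17. Cfb, factor B of the alternative pathway, was at 415 CPM with LPS, against 12.2 and 7.05 CPM in the controls (log2 fold change 5.65 ± 0.76 (SE), adjusted p = 5.14e-11) on 39 LPS members, with 11.4% from free RNA. C3, on which all complement pathways converge, was at 277 CPM with LPS, against 12.2 and 33.5 CPM in the controls (log2 fold change 3.26 ± 0.61 (SE), adjusted p = 1.16e-05), with 65.2%. C1ra, a protease of the C1 complex, was at 74.3 CPM with LPS, against 0 and 12.3 CPM in the controls (adjusted p = 0.024) and free RNA gave 84.7%. Itgam, the alpha chain of complement receptor 3, which is also on the integrin list, was at 313 CPM with LPS, against 134 and 28.2 CPM in the controls (log2 fold change 2.36 ± 0.63 (SE), adjusted p = 0.00726).

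Inflammatory cytokines and enzymes rose in 4 of 12 tested, with 0 lower and a median log2 fold change of 1.14, and in 2 of 10 after subtraction of free RNA. Il1rn, the interleukin 1 receptor antagonist, was at 354 CPM with LPS, against 12.2 and 8.81 CPM in the controls (log2 fold change 5.18 ± 0.73 (SE), adjusted p = 3.95e-10), on 55 LPS members and with 3.21% from free RNA. Acod1, which makes itaconate, was at 100 CPM with LPS, against 0 CPM in both controls (at least 21.6-fold higher, adjusted p = 2.78e-07), with 43.6% of its UMIs on 1 barcode. Il1a was at 113 CPM with LPS, against 12.2 and 19.4 CPM in the controls (log2 fold change 2.63 ± 0.69 (SE), adjusted p = 0.00619), with 47.7% of its UMIs on 1 barcode, and without members carrying S100a8 or S100a9 its adjusted p was 0.798. Ptgs2, cyclooxygenase 2, at 82 CPM with LPS, against 0 and 1.76 CPM in the controls (adjusted p = 0.0001), had 104% predicted from free RNA. Il1b and Tnf, which fall outside the rule for named genes, did not pass, Il1b being at 399.8 CPM with LPS, against 146 and 227 CPM in the controls (adjusted p = 0.56) and Tnf at 56.4 CPM with LPS, against 0 and 30 CPM in the controls (adjusted p = 0.629).

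Inhibitors that act downstream of the LPS receptor were among the risen genes. Of 22 tested genes of the receptor complex and its feedback, 3 rose and 0 fell, beside 2.7% and 1.12% of all genes tested. Socs3, an inhibitor of cytokine receptor signalling, was at 372 CPM with LPS, against 0 and 17.6 CPM in the controls (log2 fold change 4.67 ± 0.68 (SE), adjusted p = 2.12e-09), and Tnfaip3, the ubiquitin editor A20, at 177 CPM with LPS, against 0 and 10.6 CPM in the controls (log2 fold change 4.27 ± 0.71 (SE), adjusted p = 2.76e-07). Nfkbia, which holds NF-kB in the cytoplasm, was at 979 CPM with LPS, against 232 and 125 CPM in the controls (log2 fold change 2.54 ± 0.64 (SE), adjusted p = 0.00396). Dusp1, a phosphatase of MAP kinases, was at 564 CPM with LPS, against 36.6 and 312 CPM in the controls and did not pass (adjusted p = 0.178). Of 11 NF-kB genes 1 rose, Map3k8, the kinase TPL2, at 177 CPM with LPS, against 48.8 and 30 CPM in the controls (log2 fold change 2.35 ± 0.60 (SE), adjusted p = 0.00426), whereas Nfkb1, at 79.5 CPM with LPS, against 134 and 118 CPM in the controls (adjusted p = 0.851), and Rela, at 84.6 CPM with LPS, against 73.1 and 70.5 CPM in the controls (adjusted p = 0.947), did not pass. After subtraction of free RNA 2 genes of the first list passed and 0 of the second.

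Receptors for cytokines rose in 3 of 22 tested, with 0 lower, beside 2.7% higher and 1.12% lower over all genes tested. After subtraction of free RNA 1 of 21 was called, and 1 was called without TMM factors or without members carrying S100a8 or S100a9. With the top 5% of barcodes by UMIs left out, and by DESeq2, 0 were called. Il1r2, the decoy receptor for interleukin 1, was at 82 CPM with LPS, against 0 and 5.29 CPM in the controls (17.8-fold higher (95% counting interval 5.55 to 90.6), adjusted p = 0.000851), with 32 UMIs on 9 members. Il15ra, which presents interleukin 15, was at 69.2 CPM with LPS, against 24.4 and 7.05 CPM in the controls (adjusted p = 0.0435), and Il4ra at 133 CPM with LPS, against 36.6 and 35.3 CPM in the controls (adjusted p = 0.0494). Fc receptors and lectins rose in 2 of 20 tested and fell in 1, or 1 and 0 of 19 after subtraction of free RNA. Fcgr2b, the inhibitory Fc receptor, was at 720.2 CPM with LPS, against 158 and 77.6 CPM in the controls (log2 fold change 2.74 ± 0.63 (SE), adjusted p = 0.000848), and Fcgr4, an activating one, at 843 CPM with LPS, against 134 and 185 CPM in the controls (log2 fold change 2.35 ± 0.63 (SE), adjusted p = 0.00706). Free RNA gave 3.01% and 2.57%. Fcgr3 was at 851 CPM with LPS, against 439 and 405 CPM in the controls and did not pass (adjusted p = 0.662). Clec4b1, a C-type lectin, was lower, at 10.3 CPM with LPS, against 97.5 and 98.7 CPM in the controls (log2 fold change -3.22 ± 0.81 (SE), adjusted p = 0.00355). Cd300lf, an inhibitory receptor for phospholipids of dying cells, was the only 1 of 15 efferocytosis genes to rise, at 138 CPM with LPS, against 12.2 and 14.1 CPM in the controls (log2 fold change 3.30 ± 0.69 (SE), adjusted p = 0.000161), while Lrp1, at 185 CPM with LPS, against 207 and 183 CPM in the controls (adjusted p = 0.987), and Axl, at 161 CPM with LPS, against 146 and 309 CPM in the controls (adjusted p = 0.881), did not pass.

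Cx3cr1, the fractalkine receptor that marks resident intimal macrophages and patrolling monocytes, was lower with LPS. It was at 25.6 CPM in the LPS library, against 378 and 485 CPM in control replicates 1 and 2 (log2 fold change -4.07 ± 0.81 (SE), adjusted p = 4.34e-05), with 10 UMIs on 7 of 162 members, against 31 UMIs on 12 of 55 and 275 UMIs on 50 of 163. After thinning, 1 of 162 LPS members had a UMI, against 5 of 48 and 18 of 163, and a second random draw gave 1, against 4 and 17. Outside the gate 0.509% of LPS barcodes had one, against 1.63% and 2.85%. Free RNA gave 0% of the LPS UMIs and 0.917% in control replicate 2. The call passed in every alternative with a test except subtraction of the estimate from barcodes outside the gate.

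Of 23 chemokine receptors and integrins 2 rose and 2 fell, or 0 and 1 of 21 after subtraction of free RNA. Of all genes tested 2.7% rose and 1.12% fell without subtraction. Ccr2, the receptor that brings monocytes from blood, was at 28.2 CPM with LPS, against 573 and 75.8 CPM in the controls (log2 fold change -3.35 ± 0.76 (SE), adjusted p = 0.000686), but the controls differed widely and the 47 UMIs of control replicate 1 lay on 5 barcodes. Among members with no UMI of dendritic-cell, B-cell or neutrophil markers its log2 fold change was 0.06.

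Genes of resident macrophage identity mostly did not pass: 0 of 16 rose and 2 fell, with a median log2 fold change of -0.12, and 1 of 12 fell after subtraction of free RNA. The shares over all genes tested were 2.7% higher and 1.12% lower. Igf1, an insulin-like growth factor made by tissue macrophages, was lower, at 10.3 CPM with LPS, against 97.5 and 122 CPM in the controls (log2 fold change -3.42 ± 0.79 (SE), adjusted p = 0.00091), and Mgl2, a galactose-type lectin, at 30.8 CPM with LPS, against 171 and 185 CPM in the controls (log2 fold change -2.53 ± 0.69 (SE), adjusted p = 0.0099). Selenop, a selenium carrier, was at 236 CPM with LPS, against 878 and 672 CPM in the controls (adjusted p = 0.254), and Ctsb, cathepsin B, at 1489 CPM with LPS, against 1060.3 and 1322 CPM in the controls (adjusted p = 0.947). Of 24 macrophage transcription factors 2 rose and 1 fell, or 1 and 0 of 23 after subtraction of free RNA. Cebpb was at 1056 CPM with LPS, against 268 and 196 CPM in the controls (log2 fold change 2.22 ± 0.65 (SE), adjusted p = 0.0208), Id2 at 372 CPM with LPS, against 12.2 and 143 CPM in the controls (log2 fold change 1.94 ± 0.59 (SE), adjusted p = 0.0287), and Cebpa was lower, at 35.9 CPM with LPS, against 219 and 113 CPM in the controls (log2 fold change -2.08 ± 0.66 (SE), adjusted p = 0.0465). Spi1, PU.1, the master regulator of myeloid cells, was at 574 CPM with LPS, against 707 and 552 CPM in the controls (adjusted p = 0.975).

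Lysosomal and lipid genes showed few calls, where 2.7% of all genes tested rose and 1.12% fell. Of 24 lysosomal genes 1 fell, Hexa, a subunit of hexosaminidase, at 71.8 CPM with LPS, against 293 and 427 CPM in the controls (log2 fold change -2.35 ± 0.70 (SE), adjusted p = 0.0247), and 0 fell after subtraction of free RNA. Lyz2, lysozyme, was at 597 CPM with LPS, against 6459.5 and 3189 CPM in the controls, outside both controls and not past the threshold (log2 fold change -3.01 ± 1.06 (SE), adjusted p = 0.0931). Of 21 lipid-handling genes 0 were called by edgeR. Apoe, the apolipoprotein of cholesterol efflux, was at 2243 CPM with LPS, against 12651 and 7695 CPM in the controls (log2 fold change -2.18 ± 1.18 (SE), adjusted p = 0.499), and Lgals3, galectin 3, at 336 CPM with LPS, against 1560.0 and 1070.1 CPM in the controls (log2 fold change -1.96 ± 0.80 (SE), adjusted p = 0.203), both with LPS below both controls. Of 9 genes of sphingosine 1-phosphate signalling 0 were called by edgeR, with Asah1, acid ceramidase, at 236 CPM with LPS, against 146 and 247 CPM in the controls (adjusted p = 0.956), and Cers2, a ceramide synthase, at 48.7 CPM with LPS, against 73.1 and 100 CPM in the controls (adjusted p = 0.701). At an unadjusted p under 0.05 there were 759 genes among all tested.

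Of 20 tested cell-cycle genes, 7 fell, 0 rose and 13 did not pass, with a median log2 fold change of -1.85. Cenpa, the centromeric histone, was at 0 CPM with LPS, against 12.2 and 106 CPM in the controls (at least 12.2-fold lower, adjusted p = 5.63e-05), and Ccnb2, cyclin B2, at 0 CPM with LPS, against 12.2 and 93.4 CPM in the controls (at least 10.8-fold lower, adjusted p = 0.000152). Ube2c, which acts with the anaphase-promoting complex, was at 2.56 CPM with LPS, against 12.2 and 138 CPM in the controls (47.5-fold lower (95% counting interval 8.28 to 1899), adjusted p = 7.29e-05), and Ccna2, cyclin A2, at 2.56 CPM with LPS, against 0 and 65.2 CPM in the controls (22.2-fold lower (95% counting interval 3.75 to 902), adjusted p = 0.0364), again with LPS between the controls. Outside the list, the replication-dependent histone genes Hist1h2ap, at 0 CPM with LPS, against 353 and 111 CPM in the controls (at least 18.4-fold lower, adjusted p = 6.65e-09), and Hist1h2ae, at 2.56 CPM with LPS, against 183 and 56.4 CPM in the controls (28.2-fold lower (95% counting interval 4.83 to 1139), adjusted p = 9.61e-05), were lower too, both with near-identical copies, as were Kif23, a mitotic kinesin, at 2.56 CPM with LPS, against 48.8 and 52.9 CPM in the controls (20.4-fold lower (95% counting interval 3.43 to 830.4), adjusted p = 0.0235), and Cdca8, borealin, at 2.56 CPM with LPS, against 12.2 and 65.2 CPM in the controls (22.8-fold lower (95% counting interval 3.86 to 925), adjusted p = 0.024). Cenpa UMIs were on 16 members of control replicate 2 and 1 of control replicate 1, and Ccnb2 UMIs on 10 and 1. With the top 5% of barcodes by UMIs left out 0 of 10 cell-cycle genes passed, after subtraction of free RNA 0 of 19, and by DESeq2 0 of 21.

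Other genes of the largest fall were of mixed kinds. Slco2b1, an organic anion transporter, was at 0 CPM with LPS, against 24.4 and 61.7 CPM in the controls (at least 7.41-fold lower, adjusted p = 0.00342), Hacd4, an enzyme of fatty acid elongation, at 5.13 CPM with LPS, against 109.7 and 118 CPM in the controls (22.8-fold lower (95% counting interval 6.11 to 192), adjusted p = 7.43e-05), and Gpr34, a receptor for lysophosphatidylserine, at 2.56 CPM with LPS, against 36.6 and 70.5 CPM in the controls (25.8-fold lower (95% counting interval 4.4 to 1044), adjusted p = 0.00579). Free RNA gave 0% of Slco2b1 and Gpr34 and 18.8% of Hacd4 in control replicate 2. Sost, sclerostin, was at 10.3 CPM with LPS, against 97.5 and 485 CPM in the controls (log2 fold change -4.89 ± 0.87 (SE), adjusted p = 2.35e-06), and Jph2, a junctophilin of muscle, at 2.56 CPM with LPS, against 24.4 and 67 CPM in the controls (24-fold lower (95% counting interval 4.07 to 973), adjusted p = 0.0135). Of their UMIs in control replicate 2, free RNA gave 99% and 119%.

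Growth factors and matrix regulators rose in 4 of 18 tested and fell in 1, which was Igf1, and after subtraction of free RNA 0 of 11 rose and 1 fell. For this and the next lists, the shares over all genes tested were 2.7% higher and 1.12% lower. Mmp14, a membrane-bound metalloprotease, was at 351 CPM with LPS, against 0 and 65.2 CPM in the controls (log2 fold change 2.89 ± 0.60 (SE), adjusted p = 0.000119), with 8.23% from free RNA, and Timp1, an inhibitor of metalloproteases, at 110.2 CPM with LPS, against 12.2 and 8.81 CPM in the controls (log2 fold change 3.50 ± 0.78 (SE), adjusted p = 0.000445), with 100%. F10, coagulation factor X, was at 64.1 CPM with LPS, against 24.4 and 0 CPM in the controls (20.8-fold higher (95% counting interval 5.19 to 181), adjusted p = 0.0104) with 25 UMIs on 4 members. Of 15 glycolysis and hypoxia genes 1 rose, or 0 of 14 after subtraction of free RNA, Pfkfb3, a regulator of glycolytic flux, at 187 CPM with LPS, against 36.6 and 38.8 CPM in the controls (log2 fold change 2.28 ± 0.59 (SE), adjusted p = 0.00502), while Gapdh, at 730.4 CPM with LPS, against 1024 and 836 CPM in the controls (adjusted p = 0.94), and Pkm, at 374 CPM with LPS, against 268 and 418 CPM in the controls (adjusted p = 0.983), did not pass. Of 21 immediate early genes 1 rose, the phosphatase Dusp2, at 292 CPM with LPS, against 0 and 35.3 CPM in the controls (log2 fold change 3.41 ± 0.61 (SE), adjusted p = 3.33e-06), while Jund, at 413 CPM with LPS, against 341 and 612 CPM in the controls (adjusted p = 0.951), and Btg2, at 154 CPM with LPS, against 427 and 481 CPM in the controls (adjusted p = 0.265), did not pass. Of 10 clock genes Nfil3 rose, at 69.2 CPM with LPS, against 12.2 and 7.05 CPM in the controls (log2 fold change 3.08 ± 0.90 (SE), adjusted p = 0.0225), and Dbp fell, at 5.13 CPM with LPS, against 36.6 and 84.6 CPM in the controls (15.3-fold lower (95% counting interval 4.03 to 129.9), adjusted p = 0.00726), with 108% of its UMIs in control replicate 2 from free RNA. After subtraction of free RNA 2 clock genes were tested and 0 called. The clock genes Nr1d1, at 12.8 CPM with LPS, against 24.4 and 93.4 CPM in the controls (adjusted p = 0.0651), and Nr1d2, at 7.69 CPM with LPS, against 48.8 and 45.8 CPM in the controls (adjusted p = 0.199), did not pass.

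**Figure D4:**
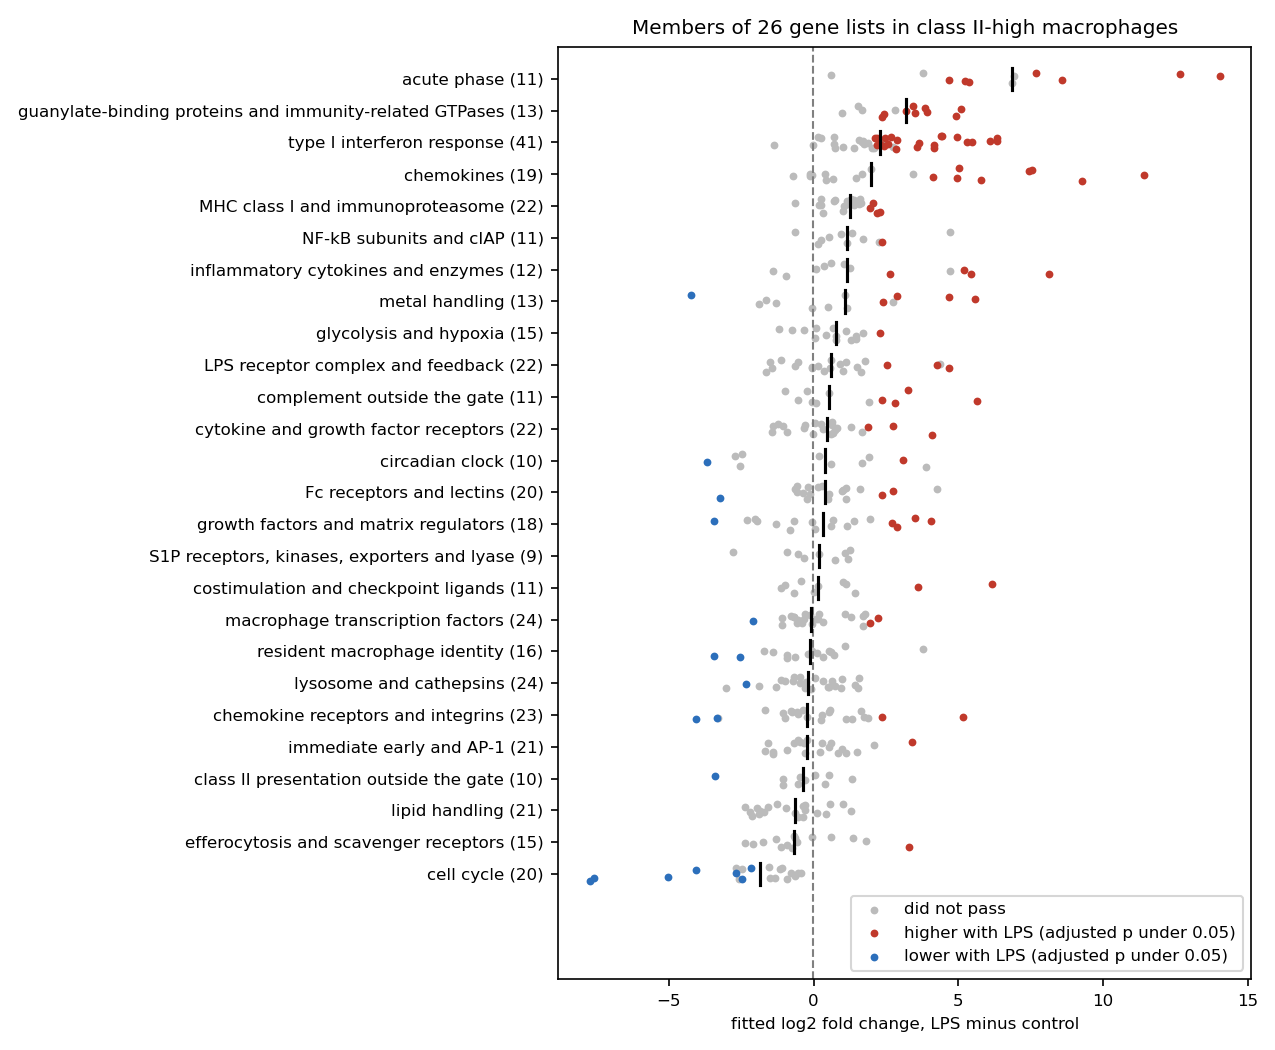
Fitted log2 fold changes (LPS over control) of every tested member of 26 gene lists, ordered by median (black bar), with the number tested in parentheses. Red points were called higher and blue points lower (adjusted p threshold 0.05), and grey points did not pass. The dashed line is the median over all genes tested. Acute-phase, guanylate-binding and interferon lists lie at the top and the cell-cycle list at the bottom. Genes at 0 in both controls are included, which pass the count filter only through the LPS library.

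Within the members, barcodes were split in each library at the median class II share, as a description. The upper part had more C1q in every library, 9778 CPM against 6044 CPM in the lower part with LPS, 12643 against 5872 CPM in control replicate 1 and 14458 against 6692 CPM in control replicate 2. Lysosomal genes and class II presentation genes outside the gate were also higher in the upper part, by 1.51 to 1.65 times. Chemokines were higher in the upper part in every library, 33083 against 17332 CPM with LPS, 1390 against 1028 CPM in control replicate 1 and 2070 against 1232 CPM in control replicate 2. In LPS members acute-phase genes were at 9051 against 11707 CPM and guanylate-binding genes at 2551 against 4453 CPM. Smooth muscle markers were lower in the upper part in every library, by a ratio of 0.367 to 0.603. The neutrophil list was at 2224 CPM in the upper part, against 202 CPM in the lower part, of LPS members. That difference rests on 1 barcode, which held 549 of the 578 UMIs of the upper part, where the lower part held 26. Median UMIs left were 1478 against 1116 in LPS members, 784.5 against 763 in control replicate 1 and 2321.5 against 1450 in control replicate 2.

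Class II-low phagocytes, which passed the phagocyte gate and missed the class II minimum, numbered 85 in the LPS library, against 8 and 11 in the controls. Some of them carried other markers: the neutrophil list, of which 24 of 84 LPS class II-low barcodes had a UMI after thinning, summed to 43229 CPM in them, against 1554 CPM in LPS members, and the monocyte list to 9589 CPM, against 1443 CPM. The difference between the LPS responses of class II-high and class II-low barcodes was tested over 6252 genes as an interaction term in a fit with a term for each library. The response of class II-high barcodes was the larger for 4 genes (0.064%) and the smaller for 2 (0.032%), with 219 at an unadjusted p under 0.05. DESeq2 called 0, with 25 at an unadjusted p under 0.05. For Ccl5 the difference was 10.81 ± 2.38 (SE) on the log2 scale (adjusted p = 0.0113). Class II-high barcodes were at 26052 CPM with LPS, against 0 and 11.4 CPM, and class II-low barcodes at 3148 CPM, against 0 and 2589 CPM. The 11 class II-low barcodes of control replicate 2 held 1457 CPM of the NK and innate lymphoid list, of which Ccl5 is no member, and 1 barcode held 95 of its 101 UMIs.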

How the data were processed

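Single-cell libraries (10x 3' v3) of aortic intimal cells were deposited as raw UMI counts per gene and barcode, which the authors made with Cell Ranger 3.1 on mm10, per the file headers and the submitters' processing notes. No source used here says by which rule barcodes were selected for deposit. Replicate numbers of the controls were given in accession order.

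Counts of members were summed per library without mitochondrial, haemoglobin, Gm42418 and AY036118 genes. Genes passing edgeR's filterByExpr were fitted with quasi-likelihood (edgeR 4.0.16, R 4.3.3, TMM, Benjamini-Hochberg threshold 0.05), the interaction with library as a block. Residual degrees of freedom were 1, and the prior degrees of freedom were infinite. The scripts were tested on simulated data. A fold against a group at 0 UMIs used a floor of 3 UMIs over that group. Floors and Clopper-Pearson intervals (95%) cover counting error only. Free RNA was estimated from 472 haemoglobin-rich LPS barcodes, against 217 and 142 in the controls, an alternative chosen after seeing the data. No doublet caller was run, and the top 5% of barcodes by UMIs were left out as an alternative, beside other gates, DESeq2 1.42.0, no TMM, no filter and thinned sums.

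Named genes were, each way, the 12 with the largest fitted change among called genes averaging 20 CPM or more in which LPS lay outside both controls, leaving out gate, predicted, mitochondrial, ribosomal, haemoglobin and receptor-segment genes. From each of 26 lists up to 4 called members were added, and up to 2 of the most abundant where fewer passed. From the interaction up to 6 genes each way were named. Ccl3, Ccl4, Il1b and Tnf were added to these after their values were seen. The members and lists were chosen with earlier results of these data known, as were the lists of markers. Marchf1, Mx1, Mx2, Cxcl11 and Clec7a were not analysed here, and some genes are not reported here.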

Additional observations from a re-analysis of the deposited data

Results flagged for a closer look

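For 6 genes the LPS response differed between class II-high and class II-low phagocytes by edgeR's test of the difference itself, given as log2 response of class II-high minus class II-low barcodes. The class II-low sums of the controls rest on 8 and 11 barcodes.

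Ccl5 differed by 10.81 ± 2.38 (SE), with an adjusted p of 0.0113. Prg4, lubricin, differed by 6.79 ± 1.20 (SE) (adjusted p = 0.000113). Class II-high barcodes held 71.5 CPM with LPS, against 0 and 3.79 CPM, and class II-low barcodes 367 CPM, against 0 and 2423 CPM, so that the difference rests on control replicate 2. Selp, P-selectin of endothelium and platelets, differed by 4.19 ± 0.92 (SE) (adjusted p = 0.0113), and its adjusted p was 1 after subtraction of haemoglobin-based free RNA. Socs3 differed by 3.91 ± 0.93 (SE) (adjusted p = 0.0255), or 0.0535 after that subtraction.

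Cxcl2, a neutrophil-attracting chemokine, differed by -6.42 ± 1.45 (SE) (adjusted p = 0.0129), being at 470.0 CPM with LPS, against 0 and 239 CPM, in class II-high barcodes and at 2657 CPM, against 0 and 15 CPM, in class II-low barcodes. Sdf2l1, a protein of the endoplasmic reticulum, differed by -4.12 ± 0.92 (SE) (adjusted p = 0.0113), being at 49.5 CPM with LPS, against 142 and 235 CPM, in class II-high barcodes. After the haemoglobin-based subtraction its adjusted p was 0.0916. By DESeq2 the adjusted p of all 6 was near 1.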

How the results depend on the processing

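The count of genes higher with LPS, 180, was 34 by DESeq2, 87 with sums thinned to the smallest library, 84 after subtraction of haemoglobin-based free RNA and 0 after subtraction of the estimate from barcodes outside the gate. The count of lower genes, 75, was 9, 31, 24 and 0 in the same order, and 30 with the removed genes kept. In the other alternatives the counts were 130 to 214 higher and 51 to 97 lower. Among barcodes with at most 20% Gm42418, 2 of the genes called higher had the opposite sign, and the cause was not tested. Without either control replicate, with 1 library on each side and no test, all 180 higher genes kept their direction, while of the lower genes 75 did without control replicate 1 and 70 without control replicate 2. The genes were called from these same libraries and the 1 LPS library cannot be left out, so a kept direction is no independent support. Of 106 named genes, 66 moved in log2 fold change by more than the controls' SD without control replicate 2, against 10 without control replicate 1.

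For the difference between class II-high and class II-low responses, the 4 genes with the larger response were 0 by DESeq2 and 1 after the outside-gate subtraction. The 2 with the smaller response were 0 and 0 in these, 5 with no filter and 5 after haemoglobin-based subtraction. The class II-high share of gated phagocytes moved to 52.2% with LPS, against 87.9% in control replicate 2, at a class II minimum of 1%, to 85.6% against 98.3% at a phagocyte minimum of 1%, and in control replicate 2 to 87.3% at a mitochondrial limit of 10%. Ccr2 turned to a log2 fold change of 0.062 among members with no UMI of other classes. The difference for Prg4 turned to -0.951 after the outside-gate subtraction, and leaving out a control replicate gave -1.44 to 6.67. No paired analysis was possible because the labels give no shared replicate numbers and there is 1 LPS library. Member depth of 94816 UMIs in control replicate 1 limits what can be seen of genes with few UMIs.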
